A study of Danio rerio with 16 samples.

Results

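Whole zebrafish larvae that had been exposed to radiofrequency radiation (RFR) as embryos were compared with unexposed larvae at 120 hours post fertilization (hpf), long after the radiation had been switched off. The RFR group carried 4 libraries of embryos exposed at 3.5 GHz and about 30 dBm between 6 and 48 hpf and collected 72 h after the end of the exposure. The control group carried 4 libraries of larvae of the same age that received no radiation. These 8 libraries were chosen by exposure and stage out of 16, the other libraries having been collected at 48 hpf, when the exposure ended. No genotype or transgene is named in the labels for either group. A gene entered the comparison at 0.5 FPKM (fragments per kilobase of transcript, scaled to the mapped reads of the library) or more in at least 4 of the 8 libraries, which left 22082 of 32513 rows. At the edge of this filter, 71 rows had a fourth-highest value of 0.5 FPKM and were kept, and 73 had 0.49 FPKM and were not. Neither the number of larvae per library nor the clutch of a replicate is given in the labels, so the p-values speak for the spread among these 8 libraries alone, and that spread may be technical.

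The 3.5 GHz band carries 5G telephony, and the comparison asks whether an exposure during organ formation leaves a difference in gene expression days later. At 120 hpf a zebrafish larva has hatched, swims and sees, its liver, gut and pancreas work, and its skin ionocytes take up salts from fresh water. Among the genes that respond within minutes to light, movement, handling or injury are the immediate-early genes, which encode short-lived transcription factors such as Fos, Egr and Npas4. Slower programmes, such as the building of the fin fold and skeleton, are read by genes for matrix proteins. Each library sums all tissues of the larva, so fewer cells of a type and less RNA per cell cannot be told apart.

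Depth after the authors' filter was 46.5 to 47.1 M reads in RFR libraries and 46.4 to 49.2 M reads in control libraries. The share of reads mapped was 66.2 to 66.8% in RFR and 66.2 to 67.6% in control libraries. Raw reads were 47.48 M in replicates 1 to 3 of both groups, and 48.05 M in RFR replicate 4 and 50.16 M in control replicate 4. Ribosomal RNA took 3.2% of reads in control replicate 1 and 0.15 to 0.24% in the other 7 libraries. The liver gene fabp10a lay between 649 and 1052 FPKM in RFR and between 693 and 1095 FPKM in control libraries, against at most 2.58 FPKM at 48 hpf. The groups were not separated on the first principal component. This component (29.1% of the variance) placed RFR replicates 1 to 4 at -18.7, -24.1, 21.3 and 8.2, and control replicates 1 to 4 at -29.3, -11.1, 35.8 and 18.1. In both groups replicates 1 and 2 thus lay on one side of this component and replicates 3 and 4 on the other. Across genes, which are no independent replicates, the median correlation of 2 libraries was 0.9739 within a group (12 pairs) and 0.9758 between groups (16 pairs).

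No gene differed between RFR and control larvae past the threshold at 120 hpf. Limma called 0 of 22082 genes, 0% of those tested, at a Benjamini-Hochberg adjusted p under 0.05, and its lowest adjusted p was 0.392. At an unadjusted p under 0.05 there were 350 genes with the higher mean in RFR (1.59% of those tested) and 419 genes on the lower side (1.9%). Both sides together made 3.48% of the genes tested, less than a threshold of 0.05 passes on average without any difference. The RFR and control libraries did not overlap for 196 genes that lay higher in RFR (0.888%) and for 276 that lay lower (1.25%). Shares of about this size arise without any difference when 4 libraries are set against 4. A positive fold change was found for 10804 genes (48.9%), and the median over all genes was -0.00342 log2 units. The half-width of a gene's 95% confidence interval had a median of 0.307 log2 units, a factor of 1.24. A simulation of this comparison recovered 86% of the genes changed 2-fold and 32% of those changed 1.5-fold. It changed only genes averaging 1 FPKM or more and gave each gene independent noise, without shifts shared across a library. These shares can therefore be too high for the data. Kcnj1a.5 and kcnj1a.6, at 2.03 and 2.09 times the control mean in FPKM, were not called. On the log2 scale of the test and the simulation they were at 0.89 and 0.93 log2 units, under the simulated 2-fold change. Even in the simulation, most differences of about 1.5-fold were not detected with 4 libraries a group. The genes described below are those with the smallest p in each direction and in each gene list, and none of them passed the test. A choice by small p favours groups that do not overlap, so such a gap in a named gene is no further support.

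Among genes with a symbol, the smallest p on the higher side belonged to si:ch73-141c7.1, which the deposited table annotates as a homolog of the coenzyme Q-binding protein COQ10, and to gadd45bb, a stress-inducible gene of the growth arrest and DNA damage family. Si:ch73-141c7.1 stood at 20.52, 21.01, 22.16 and 20.08 FPKM in RFR replicates 1 to 4, against 16.28, 15.31, 14.47 and 12.88 FPKM in control replicates 1 to 4. Its lowest RFR library lay above its highest control library, and the fold change was 0.50 ± 0.0836 log2 units (SE; limma adjusted p = 0.852). Gadd45bb lay between 8.89 (replicate 4) and 10.86 FPKM (replicate 2) in RFR libraries, against 7.0, 5.66, 4.48 and 4.55 FPKM in control replicates. Every RFR library again exceeded every control library, with a mean of 9.80 ± 0.897 FPKM in RFR and 5.42 ± 1.18 FPKM in control larvae (SD, n = 4 each), a fold change of 0.81 ± 0.139 log2 units and the same adjusted p of 0.852. Cited4a, a transcriptional coregulator that binds the coactivators CBP and p300, stood at 40.77, 38.66, 40.02 and 42.77 FPKM in RFR replicates and at 32.08, 34.58, 31.13 and 29.27 FPKM in control replicates, with no overlap. Snu13a, which encodes a protein of the U4 small nuclear ribonucleoprotein and of box C/D nucleolar particles, stood at 4.65, 5.85, 5.83 and 5.39 FPKM in RFR replicates and at 3.13, 2.2, 2.87 and 3.97 FPKM in control replicates, also with no overlap. Their fold changes were 0.35 ± 0.0702 and 0.76 ± 0.153 log2 units.

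Gh1, the growth hormone of the pituitary, stood at 13.24, 15.04, 18.02 and 13.50 FPKM in RFR replicates and at 10.39, 8.67, 11.39 and 10.60 FPKM in control replicates. The groups did not overlap, RFR replicate 3 was the highest, and the fold change was 0.52 ± 0.118 log2 units (limma adjusted p of 1). Igfbp1a, a secreted protein that binds insulin-like growth factors, stood at 33.98, 39.92, 40.75 and 38.34 FPKM in RFR replicates and at 30.69, 29.75, 28.50 and 22.53 FPKM in control replicates, a fold change of 0.46 ± 0.106 log2 units without overlap. The pituitary and thyroid list, which holds gh1 and igfbp1a, had 13 positive and 13 negative members and a median of 0.0146 log2 units. On each side 2 of its members had an unadjusted p under 0.05, beside 1.59% (higher) and 1.9% (lower) of all genes tested. The paralog igfbp1b averaged 34.8 ± 9.63 FPKM in RFR and 22.4 ± 8.04 FPKM in control larvae (SD, n = 4 each), and there the groups overlapped. The other named genes with the higher mean were the Mediator subunit gene med30, the GTPase gene gpn2, the uncharacterized zgc:136864, and si:dkey-10p5.7, annotated as a cd7 antigen-like gene, at 0.40, 0.41, 0.52 and 0.69 log2 units. In each of these 4 the lowest RFR library exceeded the highest control library, beside 0.888% of all genes tested. Their choice by small p favours this, so it is no further support.

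On the lower side, bfb, a complement factor B gene, stood at 3.23, 2.85, 2.44 and 3.32 FPKM in RFR replicates, against 4.12, 5.84, 5.06 and 7.18 FPKM in control replicates. The groups did not overlap, and the fold change was -0.79 ± 0.161 log2 units (limma adjusted p of 1). Pdgfrl, which encodes a protein related to the receptor of platelet-derived growth factor, stood at 11.38, 10.48, 12.59 and 10.66 FPKM in RFR replicates and at 15.50, 13.95, 14.80 and 16.02 FPKM in control replicates (-0.40 ± 0.0829 log2 units). Ldb3a, a Z-disc protein gene of striated muscle, stood at 80.93, 77.41, 85.66 and 76.80 FPKM in RFR replicates and at 97.46, 110.74, 100.43 and 93.53 FPKM in control replicates (-0.32 ± 0.0708). Both were lower in every RFR library than in any control library. Wdr33, a subunit of the complex that recognizes the polyadenylation signal of pre-mRNA, stood at 13.01, 13.00, 14.07 and 13.46 FPKM in RFR replicates and at 16.11, 15.74, 17.06 and 16.64 FPKM in control replicates, with a fold change of -0.28 ± 0.0657 log2 units. Cspg5a, a membrane chondroitin sulfate proteoglycan of the nervous system, had the narrowest groups, at 61.11 to 64.26 FPKM in RFR and 72.58 to 73.82 FPKM in control libraries (-0.22 ± 0.052).

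**Figure D1:**
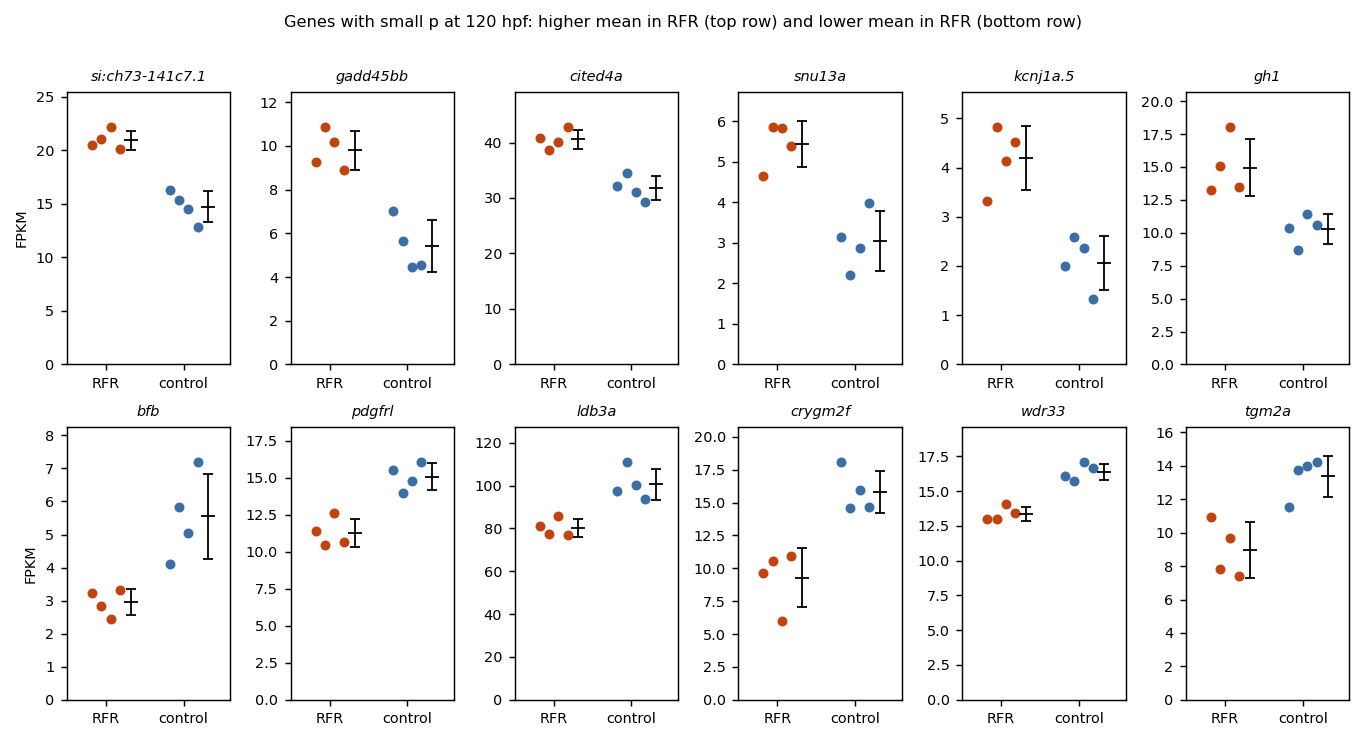
Deposited FPKM (vertical axes, starting at 0) of 12 genes in the 4 RFR (left) and 4 control (right) libraries at 120 hpf. Points are replicates 1 to 4 from left to right, and bars give the mean and SD. The panels were picked from genes with small p, and ddx43, whose groups overlap, is not shown. That the groups do not overlap in all 12 panels thus follows largely from the choice. Over all genes tested 0.888% lay higher and 1.25% lower in RFR without overlap. Gadd45bb lies at 8.89 to 10.86 FPKM in RFR and 4.48 to 7.0 FPKM in control libraries.

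The remaining named genes on the lower side came from several tissues. The transglutaminase gene tgm2a averaged 8.96 ± 1.65 FPKM in RFR and 13.4 ± 1.24 FPKM in control larvae, and the kynurenine aminotransferase gene ccbl2 averaged 8.26 ± 2.07 FPKM in RFR and 13.7 ± 2.51 FPKM in control larvae (SD, n = 4 each). Prdm12b, a regulator of sensory neurons and spinal interneurons, had a fold change of -0.38 ± 0.089 log2 units, and the clustered protocadherin gene pcdh1g26, a cell adhesion gene of neurons, one of -0.45 ± 0.108. Wu:fb80c09, annotated as sarcalumenin, a calcium-binding protein of the sarcoplasmic reticulum, stood at 2.32, 3.37, 3.26 and 2.76 FPKM in RFR replicates, against 10.01, 10.17, 4.72 and 4.18 FPKM in control replicates. Control replicates 1 and 2 set the size of that difference, which was -1.09 ± 0.279 log2 units. Ddx43, a helicase gene of the germ line, was low in all libraries, at 0.45, 0.40, 0.29 and 1.18 FPKM in RFR replicates and 1.88, 2.73, 2.01 and 1.13 FPKM in control replicates, where RFR replicate 4 and control replicate 4 overlapped. It reached 0.5 FPKM in 1 RFR library and in all 4 control libraries, so it passed the filter mainly through the controls. Zc2hc1c and LOC100537163, annotated as a CMRF35-like leukocyte receptor, lay near the filter as well, at 0.22 to 0.80 and 0.59 to 1.46 FPKM in RFR, against 1.05 to 2.34 and 1.82 to 2.44 FPKM in control libraries.

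Immediate-early genes had the highest list median after the small gadd45 family. Of 41 tested members, 38 had a positive fold change and 18 had an unadjusted p under 0.05, all 18 with the higher mean in RFR, beside 1.59% of all genes tested. The list's median was 0.335 log2 units, beside -0.00342 over all genes, and it lay between 0.263 and 0.430 with any 1 library left out. Control replicates 3 and 4 were both low for this list. Leaving out 1 library always keeps at least 1 of them, so this range cannot show dependence on the pair. Npas4a, an activity-dependent transcription factor of neurons, stood at 24.01, 22.17, 13.76 and 19.57 FPKM in RFR replicates, against 14.73, 16.09, 4.55 and 2.55 FPKM in control replicates. Control replicates 3 and 4 were far below the other 6 libraries, and RFR replicate 3 lay below control replicates 1 and 2, so the groups overlapped (1.34 ± 0.505 log2 units, limma adjusted p of 1). Fosab, a subunit of the AP-1 transcription factor, stood at 52.25, 48.21, 39.39 and 42.13 FPKM in RFR replicates and 34.45, 39.50, 16.68 and 4.44 FPKM in control replicates. Egr1, a zinc finger factor induced by growth factors and neuronal activity, stood at 84.95, 85.95, 84.25 and 76.50 FPKM in RFR replicates and at 75.81, 76.83, 52.51 and 36.07 FPKM in control replicates. In both genes control replicate 4 was the lowest library and control replicate 3 the next lowest.

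Junbb, the AP-1 subunit with the smallest p of the list, stood at 33.85, 39.64, 27.67 and 26.14 FPKM in RFR replicates and at 22.75, 25.79, 18.21 and 11.39 FPKM in control replicates. Its groups did not overlap, although RFR replicate 4 and control replicate 2 were close, and the fold change was 0.73 ± 0.236 log2 units. Myca, a Myc-family factor, lay in narrow groups, at 26.85 to 28.32 FPKM in RFR and 22.87 to 25.60 FPKM in control libraries (0.19 ± 0.062). Dusp2 and dusp5, phosphatases that switch off MAP kinases, had fold changes of 0.34 and 0.33 log2 units, and the zinc finger gene klf4 one of 0.40, each without overlap. These 5 were the members whose groups did not overlap, all higher in RFR, beside 0.888% of all genes tested. Egr4, ier2a and dusp1 had fold changes of 1.19, 0.74 and 0.68 log2 units with overlapping groups. Npas4a, fosab, egr1, egr4, ier2a, dusp1 and dusp5 lie outside the rule for named genes and were chosen after their values were seen.

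By library, the median deviation of the list from each gene's own mean was 0.173, 0.251, 0.211 and 0.007 log2 units in RFR replicates 1 to 4, and 0, 0.087, -0.243 and -0.322 in control replicates 1 to 4. RFR replicate 4 thus lay below control replicate 2, and controls 3 and 4 were the lowest libraries. Each RFR replicate lay above the control replicate of the same number, but the labels do not say whether same-numbered libraries belong together. With replicates 1 to 3 alone, which keeps control replicate 3, the list's median was 0.322. Control replicate 4 was the lowest of the 8 libraries for 27 of the 41 members and control replicate 3 for 9. At 48 hpf the list's median was 0.117 log2 units, beside 0.0435 over all genes.

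**Figure D2:**
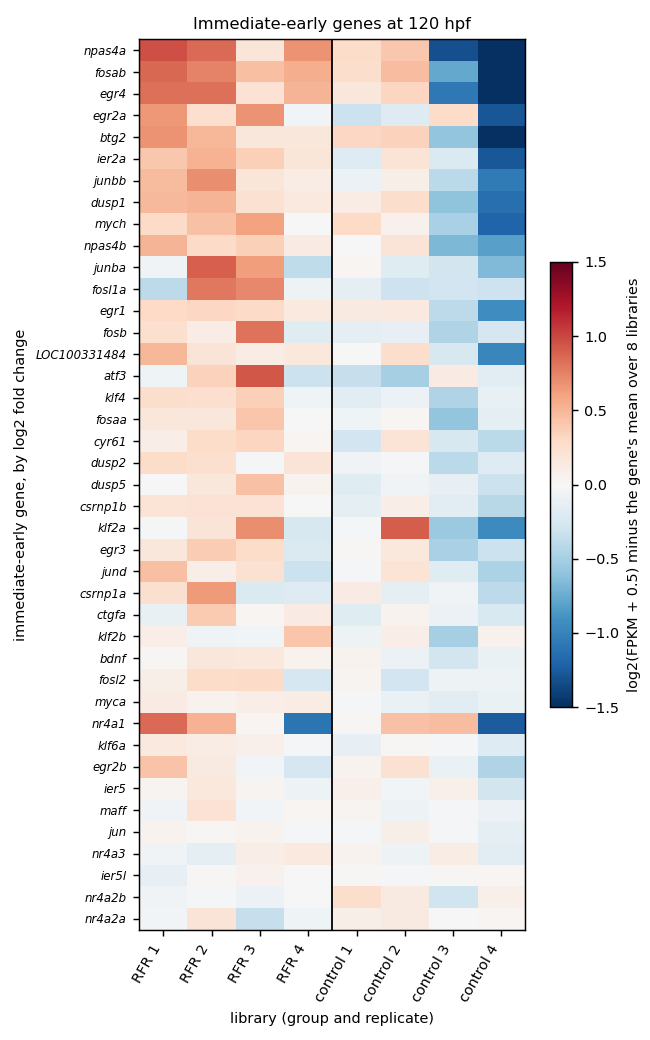
Each row is 1 of 41 immediate-early genes and each column 1 library, RFR replicates 1 to 4 left of the line and control replicates 1 to 4 right of it. Colour is log2(FPKM + 0.5) minus the gene's mean over the 8 libraries, red above and blue below, cut at 1.5; control replicates 3 and 4 hold most of the dark blue, and control replicate 4 is the lowest library for 27 genes.

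The gadd45 family, whose small proteins bind stress kinases and cell cycle regulators, was measured in full, with 6 of 6 members tested. Of these 5 had a positive fold change. Gadd45bb and gadd45ba had an unadjusted p under 0.05, both with the higher mean in RFR, beside 1.59% of all genes tested. Gadd45ba stood at 51.06, 71.05, 71.27 and 51.30 FPKM in RFR replicates, against 51.40, 49.05, 30.59 and 15.51 FPKM in control replicates. RFR replicates 1 and 4 lay at the level of control replicate 1, and the low values were again those of control replicates 3 and 4 (0.86 ± 0.338 log2 units). Gadd45ab averaged 13.5 ± 4.0 FPKM in RFR and 8.96 ± 2.75 FPKM in control larvae (SD, n = 4 each), with overlap. The fold changes of gadd45ga, gadd45aa and gadd45gb.1 were 0.18, 0.10 and -0.03 log2 units, so the members differed in size and sign. Gadd45bb was the member whose groups did not overlap, where 0.888% of all genes tested lay higher in RFR without overlap.

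Genes of inflammation leaned to higher means in RFR larvae, and the list followed single libraries. Of 33 tested members 27 had a positive fold change, 6 had an unadjusted p under 0.05 (all with the higher mean in RFR, beside 1.59% of all genes tested), and the median was 0.146 log2 units. It was 0.0761 without control replicate 4 and 0.289 without control replicate 3. Ptgs2a, a cyclooxygenase that makes prostaglandins, stood at 11.26, 10.87, 11.30 and 10.04 FPKM in RFR replicates and at 7.22, 10.47, 7.38 and 6.80 FPKM in control replicates, where control replicate 2 reached into the RFR range. Its paralog ptgs2b averaged 7.05 ± 2.22 FPKM in RFR and 4.23 ± 1.16 FPKM in control larvae (SD, n = 4 each), without overlap. The C/EBP transcription factor gene cebpb averaged 25.5 ± 1.65 FPKM in RFR and 18.8 ± 4.29 FPKM in control larvae (SD, n = 4 each), without overlap. Of the 33 members 18 were highest in RFR replicate 3 and 14 were lowest in control replicate 4. Markers of neutrophils and macrophages had 18 of 31 positive fold changes, 0 members at an unadjusted p under 0.05 and a median of 0.0258 log2 units. By library this marker list stood at -0.203, -0.136, 0.392 and 0.005 log2 units in RFR replicates and at -0.188, -0.216, 0.352 and -0.119 in control replicates, high in replicate 3 of both groups. The part of these cells in the inflammation values was not tested.

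Glucocorticoid and stress axis genes gave no common direction, with 14 of 24 fold changes positive and a median of 0.0326 log2 units. The median was -0.0444 without control replicate 4 and 0.213 without RFR replicate 4, and replicate 4 of both groups was low, at -0.302 in RFR and -0.205 in control. Sgk1, a kinase induced by glucocorticoids and by salt stress, stood at 52.31, 56.14, 64.00 and 49.56 FPKM in RFR replicates and at 49.03, 41.53, 40.96 and 32.02 FPKM in control replicates, without overlap by a narrow margin. Crhr2, a receptor for corticotropin-releasing peptides, had a fold change of -0.53 ± 0.193 log2 units with overlap, and cebpd one of 0.66 ± 0.322. Among 36 tested p53 targets and DNA damage genes, 22 were positive. An unadjusted p under 0.05 was found for 3 of the 36, all with the higher mean in RFR, beside 1.59% of all genes tested. They were trib3, a pseudokinase induced by amino acid and endoplasmic reticulum stress (0.37 ± 0.0946 log2 units), the polo-like kinase gene plk2b (0.32 ± 0.102) and the apoptosis gene bbc3 (0.32 ± 0.129). Trib3 and plk2b did not overlap between groups, where 0.888% of all genes tested lay higher in RFR without overlap. The list's median was 0.0562 log2 units, or -0.00201 without RFR replicate 3.

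Ionocytes of the larval skin pump ions and acid, and several of their genes had the higher level in RFR larvae. Of 39 tested members, 32 had a positive fold change. An unadjusted p under 0.05 was found for 6 with the higher mean in RFR and for 1 (rhbg) on the lower side. Over all genes tested these shares were 1.59% and 1.9%. The groups did not overlap for 5 members, all 5 higher in RFR, beside 0.888% of all genes tested. Of these 5, 4 belong to 1 tandem cluster of kcnj1a genes, which encode inwardly rectifying potassium channels of the ROMK type. Kcnj1a.5 stood at 3.31, 4.82, 4.13 and 4.52 FPKM in RFR replicates, against 2.0, 2.58, 2.36 and 1.32 FPKM in control replicates. Kcnj1a.6 stood at 3.71, 3.83, 3.27 and 3.96 FPKM in RFR replicates and at 2.44, 2.22, 1.25 and 1.16 FPKM in control replicates. Both were about 2 times higher in RFR by their means (2.03 and 2.09), with fold changes of 0.89 ± 0.179 and 0.93 ± 0.196 log2 units (limma adjusted p of 1 for both). Kcnj1a.3 and kcnj1a.4 averaged 2.73 ± 0.44 and 3.36 ± 0.86 FPKM in RFR, against 1.32 ± 0.51 and 1.47 ± 0.832 FPKM in control larvae (SD, n = 4 each). The copies are similar in sequence, so reads can be split between them, and the 4 values are not 4 independent measurements.

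Foxi3a, the forkhead factor that specifies ionocytes, stood at 3.77, 4.22, 4.34 and 3.48 FPKM in RFR replicates, against 3.15, 3.0, 3.23 and 2.28 FPKM in control replicates, without overlap (0.39 ± 0.124 log2 units). The chloride cotransporter gene slc12a10.3 had a fold change of 0.65 ± 0.229 with overlap. Rhbg, an ammonia channel gene, lay the other way, at 85.28 to 94.16 FPKM in RFR and 87.01 to 111.56 FPKM in control libraries. The list's median was 0.115 log2 units, 0.067 without RFR replicate 3 and 0.197 without RFR replicate 4. At 48 hpf it was -0.00873, beside 0.0435 over all genes. The named kcnj1a.4, foxi3a, slc12a10.3 and rhbg were chosen after their values were seen.

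Other genes of the skin surface lay on the same side for a few members. Cldnb, a tight junction claudin of the epidermis, stood at 42.08, 45.15, 40.63 and 43.54 FPKM in RFR replicates and at 29.82, 35.84, 33.04 and 23.89 FPKM in control replicates. The RFR libraries lay close together and above every control library (0.49 ± 0.116 log2 units). Anxa1c, an annexin, stood at 101.24, 125.43, 101.21 and 110.26 FPKM in RFR replicates and at 78.70, 95.51, 95.62 and 86.39 FPKM in control replicates, again without overlap. Cldn1 had a fold change of 0.32 ± 0.128 with overlap. Over the 65 epidermal genes the median was 0.0271 log2 units with 39 positive, and over the 29 claudins 0.0652 with 21 positive. The epidermal median was 0.0162 without RFR replicate 1 and 0.0646 without control replicate 2. The claudin median was 0.0224 without RFR replicate 3 and 0.102 without RFR replicate 1. Epidermal genes had 5 members at an unadjusted p under 0.05 and claudins 2, all with the higher mean in RFR, beside 1.59% of all genes tested. These counts are not separate observations, as cldnb is in both lists and the epidermal gene klf4 is also an immediate-early member.

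Genes of fin fold, connective tissue and skeleton mostly had the lower mean in RFR larvae, and none passed the test. The actinodins are structural proteins of the actinotrichia, the fibres that stiffen the fin fold of fish. And1 stood at 210.18, 144.41, 171.12 and 182.09 FPKM in RFR replicates, against 217.34, 252.01, 236.47 and 223.84 FPKM in control replicates. And2 stood at 325.79, 269.91, 335.02 and 312.86 FPKM in RFR replicates and at 343.81, 373.69, 404.92 and 354.79 FPKM in control replicates. And3 stood at 135.69, 113.91, 136.18 and 133.16 FPKM in RFR replicates and at 163.46, 159.55, 152.87 and 153.57 FPKM in control replicates. In all 3 genes every RFR library lay below every control library and RFR replicate 2 was the lowest, with fold changes of -0.40 ± 0.109, -0.25 ± 0.085 and -0.28 ± 0.072 log2 units (limma adjusted p of 1 for each). Of the 34 tested fin fold genes, 26 were on the negative side and 5 an unadjusted p under 0.05 with the lower mean in RFR, beside 1.9% of all genes, while 1 had the higher mean. The 3 actinodins were the members whose groups did not overlap, where 1.25% of all genes tested lay lower in RFR without overlap. The list's median was -0.0932 log2 units, or -0.0454 without control replicate 2.

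Fibrous matrix genes had more members at a small p than any other list on the lower side. Of 64 tested, 50 were negative. An unadjusted p under 0.05 was found for 11, all with the lower mean in RFR, beside 1.9% of all genes tested. For 4 members, all lower in RFR, the groups did not overlap, beside 1.25% of all genes tested. Postnb, a periostin of tendon and fin mesenchyme, stood at 150.38, 123.17, 117.69 and 140.36 FPKM in RFR replicates and at 150.40, 172.67, 161.58 and 159.81 FPKM in control replicates. RFR replicate 1 and control replicate 1 were almost equal (-0.28 ± 0.088 log2 units). Tnxb, a tenascin that organizes collagen, stood at 4.23, 3.16, 2.88 and 3.03 FPKM in RFR replicates and at 4.37, 4.58, 5.15 and 4.45 FPKM in control replicates (-0.44 ± 0.123). The collagen chaperone gene serpinh1b, which is also a heat shock gene, averaged 54.9 ± 15.3 FPKM in RFR and 84.1 ± 14.7 FPKM in control larvae (SD, n = 4 each) with overlap. Postna and the proteoglycan gene fmoda completed the 4 without overlap, at -0.19 and -0.21 log2 units, and the matrix glycoprotein gene sparc, at -0.21, overlapped. Postna and fmoda were chosen after their values were seen.

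**Figure D3:**
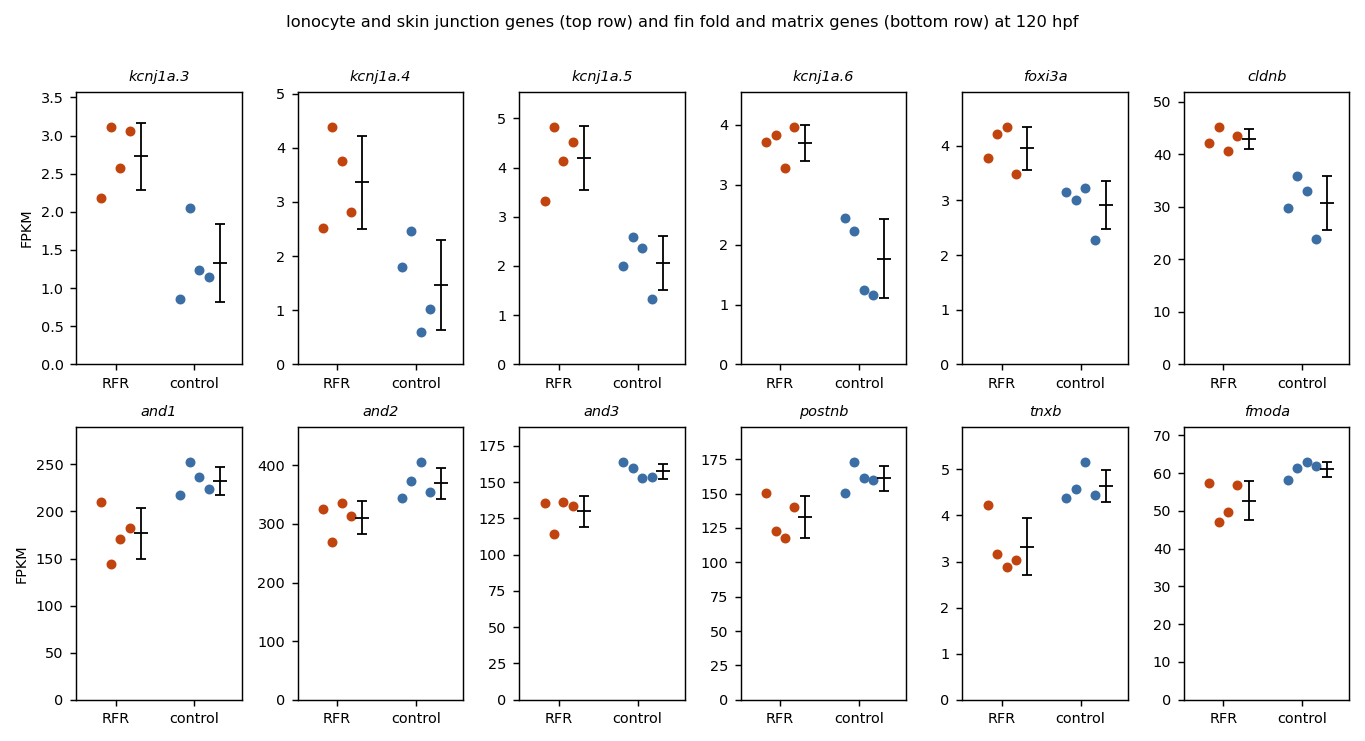
Deposited FPKM (vertical axes, starting at 0) of 6 ionocyte and skin genes (top row) and 6 fin fold and matrix genes (bottom row) in the 4 RFR (left) and 4 control (right) libraries, with bars for mean and SD. Only genes whose groups do not overlap are shown, some chosen after their values were seen. Rhbg, slc12a10.3, cldn1, serpinh1b and sparc, whose groups overlap, are left out. Over all genes tested 0.888% lay higher and 1.25% lower in RFR without overlap. And1 lies at 144.41 to 210.18 FPKM in RFR and 217.34 to 252.01 FPKM in control libraries. Cldnb lies at 40.63 to 45.15 FPKM in RFR and 23.89 to 35.84 FPKM in control libraries.

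The median of the fibrous matrix list was -0.0982 log2 units. By library it stood at -0.003, -0.112, -0.074 and -0.06 log2 units in RFR replicates and at -0.052, 0.15, 0.098 and 0.076 in control replicates. Control replicate 1, the library with the high ribosomal RNA share, lay within the RFR range, and without it the median was -0.17. Cartilage and bone genes were negative in 45 of 57 cases, and their median was -0.12 log2 units, -0.2 without control replicate 1 and -0.0693 without control replicate 3. Col11a1b, a fibrillar collagen chain of cartilage, averaged 18.4 ± 1.52 FPKM in RFR and 23.0 ± 1.52 FPKM in control larvae (SD, n = 4 each), without overlap (-0.31 ± 0.0818). In this list 1 member lay lower in RFR without overlap and 1 lay higher. Of all genes tested 1.25% lay lower and 0.888% higher without overlap. The cartilage collagen gene col2a1b and the matrilin gene matn3b had fold changes of -0.26 and -0.20 log2 units with overlapping groups. In the cartilage list 3 members had an unadjusted p under 0.05 with the lower mean in RFR and 1 with the higher. Notochord and floor plate genes had a median of -0.111 log2 units, with 17 of 26 negative, 3 members at an unadjusted p under 0.05 on the lower side and 1 on the higher. Over all genes tested the shares were 1.9% lower and 1.59% higher.

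Cell cycle and DNA replication genes had the lowest list median, -0.184 log2 units, and 71 of 76 fold changes were negative, and 1 library stood apart. RFR replicate 2 was the lowest of the 8 libraries for 68 of the 76 members. By library the list stood at 0.059, -0.564, 0.234 and -0.056 log2 units in RFR replicates, against -0.163, 0.272, 0.302 and -0.04 in control replicates. Without RFR replicate 2 the median was -0.0311 log2 units, and without RFR replicate 3 it was -0.277. An unadjusted p under 0.05 was found for 2 of the 76 members (2.63%), close to the 1.9% of all genes on the lower side: cyclin D2 (ccnd2a), at 16.68 to 20.76 FPKM in RFR and 20.77 to 24.06 FPKM in control libraries, and thymidylate synthase (tyms), at 4.5 to 10.75 FPKM in RFR and 8.37 to 12.67 FPKM in control libraries. Uhrf1, which maintains DNA methylation after replication, lay at 4.34 to 10.33 FPKM in RFR and 9.59 to 12.91 FPKM in control libraries. Neural progenitor genes had 34 of 44 negative and a median of -0.0819 log2 units, with the proneural and Notch-related genes neurog1, hes6 and her4.3 at -0.39, -0.36 and -0.67 log2 units, all 3 with overlapping groups. Without RFR replicate 3 the progenitor median was -0.0278. Among progenitor genes 4 had an unadjusted p under 0.05, all with the lower mean in RFR, beside 1.9% of all genes tested.

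**Figure D4:**
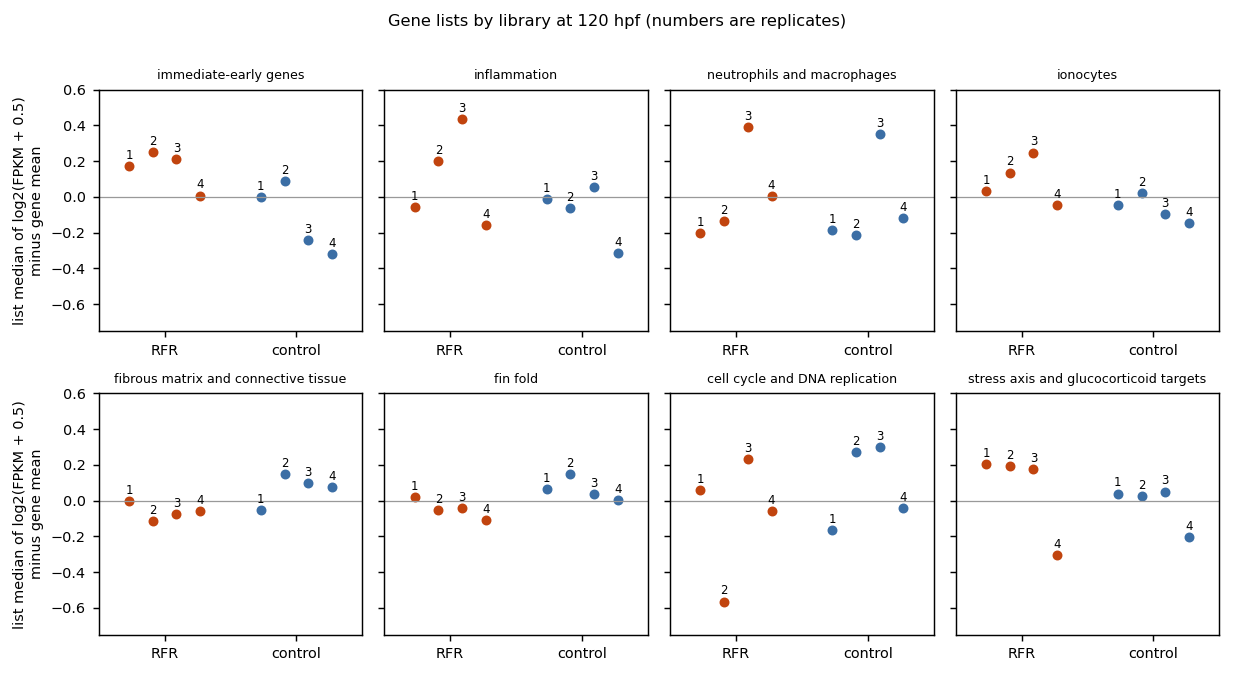
Median over a list's members of log2(FPKM + 0.5) minus each gene's mean over the 8 libraries (vertical axis), for 8 lists, with RFR replicates on the left and control replicates on the right of each panel. Replicate 3 of both groups is high for neutrophils and macrophages (0.392 in RFR and 0.352 in control), replicate 4 of both is low for the stress axis (-0.302 and -0.205), and RFR replicate 2 is the low library of the cell cycle list at -0.564.

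Neuronal and synaptic genes split into 37 positive and 41 negative with a median of -0.00433 log2 units, -0.0429 without control replicate 3 and 0.054 without RFR replicate 3. Snap25b, a component of the synaptic vesicle fusion machinery, stood at 101.54, 94.55, 94.08 and 98.88 FPKM in RFR replicates and at 105.92, 106.83, 109.99 and 106.96 FPKM in control replicates. Its groups did not overlap, and the fold change was -0.14 ± 0.0547 log2 units. Syn1, a synapsin, and the tubulin gene tubb5 had fold changes of -0.24 and -0.39 log2 units with overlap. The median of the 71 rod and cone genes was -0.00354 log2 units, with 35 positive, and -0.0648 without RFR replicate 1. Skeletal muscle genes had a median of -0.0157 log2 units over 86 members. Of these, 4 had an unadjusted p under 0.05 with the lower mean in RFR, beside 1.9% of all genes tested, among them ldb3a and the troponin gene tnnt3a. Tnnt3a lay at 113.28 to 118.02 FPKM in RFR and 117.11 to 152.83 FPKM in control libraries.

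Lens genes had 49 of 63 positive fold changes and a median of 0.0604 log2 units, 0.0221 without RFR replicate 4 and 0.141 without RFR replicate 3. RFR replicate 3 was the lowest library for 45 of the 63 members, and RFR replicate 4 was the highest for 25. Crygm2f, a gamma crystallin, lay against this majority, at 9.65, 10.54, 6.00 and 10.96 FPKM in RFR replicates and 18.05, 14.55, 15.92 and 14.68 FPKM in control replicates, without overlap (-0.76 ± 0.173). The much more abundant crygm2d12 averaged 584 ± 79.8 FPKM in RFR and 501 ± 32.4 FPKM in control larvae (SD, n = 4 each), with overlap. Lim2.2, a lens fibre membrane gene expressed near the filter, stood at 1.63, 1.63, 1.21 and 1.51 FPKM in RFR replicates and at 1.2, 0.65, 0.89 and 0.72 FPKM in control replicates. Crystallin copies resemble each other, so their reads can be split between rows.

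Heat shock and chaperone genes had 30 of 44 negative fold changes and a median of -0.0832 log2 units, or 0.0029 without RFR replicate 2, with 4 members (of 44) at an unadjusted p under 0.05, all with the lower mean in RFR, beside 1.9% of all genes tested. The small heat shock protein gene hspb1 lay at 23.30 to 28.27 FPKM in RFR and 27.82 to 36.13 FPKM in control libraries, and the Hsp90 cochaperone gene ahsa1a at 3.16 to 5.71 FPKM in RFR and 4.47 to 8.22 FPKM in control libraries. Oxidative stress and Nrf2 genes had 19 of 43 positive and a median of -0.0324 log2 units. This median was -0.0768 without control replicate 1 and 0.0618 without RFR replicate 2. The glutathione transferase gene mgst3a was lower without overlap, at 58.30 to 65.43 FPKM in RFR and 66.12 to 88.94 FPKM in control libraries. The heme oxygenase gene hmox2a was higher without overlap, at 25.04 to 29.17 FPKM in RFR and 22.01 to 24.50 FPKM in control libraries. The unfolded protein and hypoxia lists had medians of -0.0535 and -0.00993 log2 units. Both changed sign with the library left out, at -0.124 and -0.0417 without RFR replicate 3 and 0.0135 and 0.0443 without RFR replicate 2.

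Clock and light-regulated genes had 36 of 47 positive fold changes and a median of 0.0759 log2 units, 0.052 without RFR replicate 2 and 0.126 without RFR replicate 3. Nfil3, a repressor of the clock's output genes, stood at 9.87, 11.65, 10.41 and 11.12 FPKM in RFR replicates and at 8.42, 7.61, 8.88 and 8.67 FPKM in control replicates, without overlap (0.34 ± 0.0839 log2 units). The related nfil3-6 and the nuclear receptor gene nr1d1, a core clock repressor, had fold changes of 0.35 and 0.20 log2 units with overlap. At 48 hpf this list's median was 0.103 log2 units, beside 0.0435 over all genes.

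Gut, liver and hormone genes differed one by one. Pyya, a peptide hormone of gut and pancreas, stood at 14.29, 13.23, 12.92 and 11.74 FPKM in RFR replicates and at 11.03, 11.01, 9.44 and 10.09 FPKM in control replicates, without overlap (0.31 ± 0.0867). The secreted liver gene leg1.1 stood at 120.92, 127.61, 131.25 and 148.01 FPKM in RFR replicates and at 97.65, 110.77, 119.59 and 107.32 FPKM in control replicates, also without overlap. The gluconeogenic gene g6pca.2 averaged 101 ± 16.7 FPKM in RFR and 72.9 ± 21.7 FPKM in control larvae (SD, n = 4 each), with control replicate 4 the lowest library. Insig1, a sterol sensor, had a fold change of 0.31 ± 0.105 log2 units with overlap. The medians of the liver, intestine and lipid lists were 0.019, 0.000637 and 0.0205 log2 units, and all 3 changed sign with the library left out. They were -0.0417 without control replicate 1 and 0.0907 without control replicate 4 for the liver, -0.0669 without RFR replicate 3 and 0.0937 without control replicate 3 for the intestine, and -0.0698 without RFR replicate 3 and 0.0755 without RFR replicate 4 for the lipid list. The serotonin receptor gene htr1aa was higher in RFR without overlap, at 4.42 to 5.33 FPKM in RFR and 3.55 to 4.23 FPKM in control libraries. The otolith matrix gene stm was lower without overlap, at 47.07 to 52.48 FPKM in RFR and 55.35 to 60.29 FPKM in control libraries. Cytosolic ribosomal protein genes had 66 of 83 positive fold changes at a median of 0.0346 log2 units, and 0 had an unadjusted p under 0.05.

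**Figure D5:**
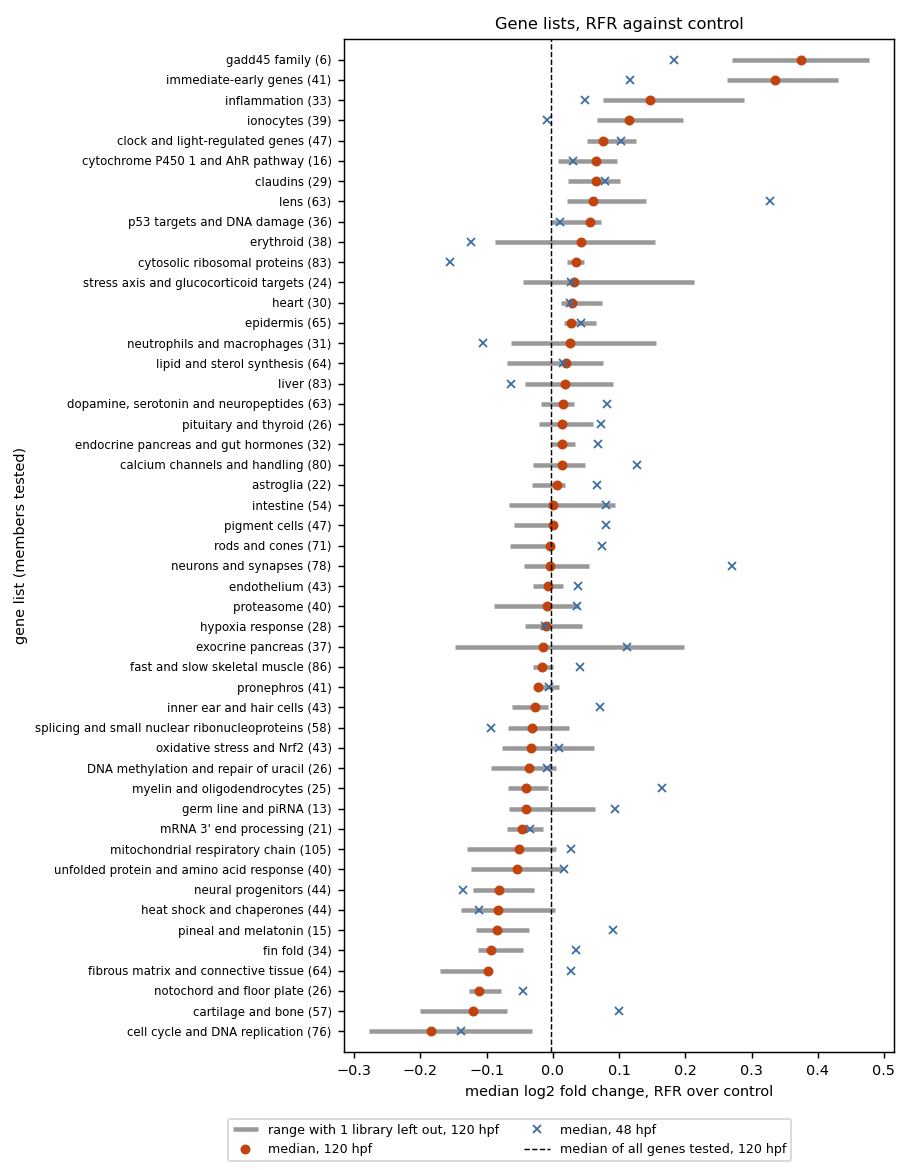
Median log2 fold change of RFR over control (horizontal axis) for 49 gene lists, with the number of members tested in brackets. Filled points are 120 hpf, grey bars the range of the 120 hpf median when any 1 library is left out, crosses 48 hpf, and the dashed line the median of all genes at 120 hpf (-0.00342); the gadd45 family (0.375) and immediate-early genes (0.335) are at the top and cell cycle genes (-0.184) at the bottom.

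Rows of noncoding RNA without a symbol were frequent among the smallest p. They made up 1446 of the genes tested, and 7.4% of them had an unadjusted p under 0.05, beside 3.21% of the 20636 rows with a symbol. Their level was lower, with a median of 1.47 FPKM beside 5.35 FPKM, and their fold changes were less precise, with a median SE of 0.265 beside 0.132 log2 units. The smallest p of all genes was that of XR_002455914.1, a noncoding variant of the vcpkmt locus, at 1.47, 1.2, 1.01 and 1.54 FPKM in RFR replicates. In control replicates it was listed at 0, 0, 0 and 0.29 FPKM (limma adjusted p = 0.392). XR_002456131.1, of an uncharacterized locus, was listed at 0 in all 4 RFR libraries and stood at 1.09, 0.50, 0.62 and 0.79 FPKM in control replicates (adjusted p = 0.628). A more abundant one, XR_002456913.1, stood at 52.51, 60.61, 48.57 and 46.83 FPKM in RFR replicates and at 35.73, 38.70, 24.72 and 26.04 FPKM in control replicates (adjusted p of 1). XR_002455914.1 reached the filter through RFR libraries alone and XR_002456131.1 through control libraries alone, so both had to differ and their p supports nothing, and the share of 7.4% includes such rows. The 3 rows were chosen after their values were seen, and an exact 0 in a file without counts can be a failed estimate.

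The difference at 120 hpf was set against that at 48 hpf, when the exposure had just ended, in 1 limma fit of all 16 libraries. For 0 of 22082 genes (0%) did the RFR effect at 120 hpf differ from the effect at 48 hpf at an adjusted p under 0.05, and the lowest adjusted p was 0.514. At an unadjusted p under 0.05 stood 1531 genes, 435 with the higher and 1096 with the lower effect at 120 hpf, and after quantile normalization 633 higher and 757 lower. Gadd45bb had a fold change of 0.81 log2 units at 120 hpf and -0.12 at 48 hpf, a difference of 0.93 ± 0.198 log2 units. Pdgfrl was at -0.40 at 120 hpf and 0.26 at 48 hpf, pcdh1g26 at -0.45 and 0.27, and cspg5a at -0.22 and 0.41. Si:ch73-141c7.1 was at 0.50 at 120 hpf and -0.02 at 48 hpf. The adjusted p of the difference was 0.514 for each of these 5, and also for the named genes and3 and zgc:136864. The 5 were named for their small p at 120 hpf and picked from the named genes without a rule. Their differences thus reuse the values that selected them, and the sizes can be inflated by that choice. At 120 hpf the list medians of neurons and synapses, lens and ribosomal proteins were -0.00433, 0.0604 and 0.0346 log2 units. At 48 hpf they were 0.271, 0.328 and -0.155, beside 0.0435 over all genes. The 48 hpf medians were not recomputed with libraries left out. No test of the difference between these medians was run.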

How the data were processed

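The deposited table gives FPKM per gene and library. HISAT2, Bowtie2, DESeq2 and GRCz11 appear in the submitters' processing notes without version or role. Which program computed FPKM is not given in the sources. Ribosomal RNA reads are in percent, per the file header. The header of the mapped share names no unit, and its values were read as percent. The number of reads behind each gene is unknown, so no counting interval is given.

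FPKM are not counts, so limma 3.58.1 in R 4.3.3 was run on log2(FPKM + 0.5) of the 8 libraries, with a mean-variance trend, two-sided p-values and Benjamini-Hochberg adjustment over all 22082 genes. A gene was called at an adjusted p under 0.05. Fold changes are RFR over control on this scale, which understates changes of low genes. The difference from 48 hpf is the interaction term over 16 libraries. The fit was tested on simulated data with 100 genes changed 2-fold and 100 changed 1.5-fold, and 6 of its 124 calls were false.

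The comparison and the gene lists were chosen with earlier results of these data known. List entries matched by the table's symbols for 1987, by current symbols for 98 and by synonyms for 24 (RefSeq names, assembly GRCz12tu, names only), by name patterns for 311, and 47 stayed unmatched, among them and4. Named genes were the 15 smallest p in each direction among symbol-bearing genes averaging 1 FPKM or more, the 3 smallest p of each list with at least 5 tested members, the gadd45 family and the actinodins. Lists are described by counts and medians, with no test. Other pseudocounts, filters, scalings, library weights, a replicate block and leaving out libraries were tried. Some named genes are not reported here. No sequences or coordinates are given.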

Additional observations from a re-analysis of the deposited data

Results flagged for a closer look

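In 12 of 304 groups of 4 examined (named genes and lists, in RFR and in control libraries), 1 library stood apart from the other 3 by Dixon's criterion. That is 3.95% of groups, where chance flags about 1 in 20 groups. Among genes, RFR replicate 2 was low for and3 (113.91 FPKM) and high for trib3 (16.93 FPKM). Control replicate 4 was low for med30 (12.73 FPKM), control replicate 1 was low for tgm2a (11.54 FPKM), and control replicate 2 was high for ptgs2a (10.47 FPKM). Among lists, replicate 4 was low for the stress axis in RFR (-0.302 log2 units) and in control (-0.205 log2 units). RFR replicate 3 was high for the intestine (0.261) and lipid and sterol synthesis (0.252). Control replicate 3 was high for neutrophils and macrophages (0.352), control replicate 4 for rods and cones (0.042) and control replicate 2 for pigment cells (0.132).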

How the results depend on the processing

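The count of genes called at 120 hpf was 0 under all 18 alternatives, and the lowest adjusted p of limma lay between 0.0844 (no filter on low values) and 1. The count at an unadjusted p under 0.05 was 769, lay between 594 (without RFR replicate 2) and 1141 (without RFR replicate 3) with 1 library left out, and was 1156 of 31874 genes without the filter, which tests more genes. Of the 103 genes named with a test, none passed under any alternative (lowest adjusted p 0.142), and the sign changed for 1, gadd45gb.1, to 0.02 without RFR replicate 2 and 0.04 without control replicate 3 (-0.09 to 0.04 with any 1 library left out). Many of the 103 were named for a small p in these same libraries. Where the groups do not overlap, leaving out 1 library cannot change the sign. The kept signs therefore follow largely from the choice of genes and are no support. The medians of 22 of 49 lists kept their sign under every alternative, and 27 changed it under at least 1. Immediate-early, gadd45, inflammation, ionocyte, fin fold, matrix, cartilage and cell cycle medians are among the 22. No alternative left out control replicates 3 and 4 together, the low libraries of the immediate-early list. With the replicate block 0 genes were called and 1061 had an unadjusted p under 0.05. The unadjusted limma p of named genes moved both ways with the block. It went from 0.012 to 0.000423 for junbb (adjusted p = 0.667) and from 0.00068 to 0.00327 for cited4a. To look for pairing, each gene's group mean was subtracted and the deviations left were correlated across genes. For same-numbered libraries these correlations of deviations were 0.198, 0.0688, 0.293 and 0.293. By this measure RFR replicates 1, 3 and 4 correlated best with their own number and RFR replicate 2 with control replicate 1 (0.302). The labels name no shared clutch or batch, so the main fit did not pair the libraries. Whether the numbers pair them is not settled by these values. With replicates 1 to 3 alone 0 genes were called and 629 had an unadjusted p under 0.05. After median-ratio scaling the genes at an unadjusted p under 0.05 for the difference between stages split into 597 higher and 708 lower, where 435 and 1096 stood without it. This difference gave 0 calls under every alternative but 1: without RFR 48 hpf replicate 1, 1 gene was called, the crystallin gene crygm2d15 (adjusted p = 0.0114; range over libraries left out 0 to 1 genes), which was named after its value was seen; with the replicate block it gave 0 calls and 1587 genes at an unadjusted p under 0.05. The cause of these changes was not tested. With 4 libraries a group most simulated 1.5-fold changes were missed, and reads per gene are unknown.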
